A study of Mus musculus with 34 samples.

Results

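The PGC-1 coactivators and the regulators of mitochondrial gene expression that act with them were followed in the liver of mouse pups whose thyroid hormone supply was lowered or raised for a short time. The set was chosen by gene name and held 10 genes: Ppargc1a, Ppargc1b, Pprc1, Esrra, Nrf1, Gabpa, Tfam, Tfb1m, Tfb2m and Polrmt. A probe was a member when its RefSeq transcript carried one of these names, which gave 15 probes for 9 of the 10 genes, of 41174 probes and 16535 named genes on the array. No probe was matched to Pprc1, which was not analysed here. The set was selected on an earlier readout of these same arrays, the higher Ppargc1b signal in hormone-injected than in uninjected goitrogen-treated pups, so that contrast is given below as a description with no test.

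PGC-1 proteins bind no DNA themselves. They dock on nuclear receptors and other transcription factors, among them the estrogen-related receptor Esrra, the nuclear respiratory factor Nrf1 and the GABP complex, and raise transcription of their targets. Those targets include the factors that copy and transcribe mitochondrial DNA, so that a hormonal or nutritional signal at the coactivator can reach genes of both genomes. In liver, Ppargc1a is known for fasting-induced glucose production and fatty acid oxidation and Ppargc1b for oxidative metabolism and lipid synthesis, and thyroid hormone is a known regulator of mitochondrial biogenesis.

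The mitochondrial transcription machinery is the textbook target of Nrf1 and GABP. Promoters of Tfam, Tfb2m and Polrmt, with that of Esrra, are shown, and each holds letters of an NRF-1 or ETS site. The window of Tfb1m, of the same machinery, holds none and is not shown. Each window runs from 250 bases before to 50 bases after the RefSeq start site on build GRCm38.p6, in the gene's direction, and all 4 genes lie on the minus strand: Tfam at chr10:71237995-71238294, Tfb2m at chr1:179546227-179546526, Polrmt at chr10:79746532-79746831 and Esrra at chr19:6921759-6922058. Capitals mark the letters GCGCATGC, the core of an NRF-1 site, or CCGGAAG, the core of an ETS site of the kind GABP binds, or either one read on the other strand.
Tfam: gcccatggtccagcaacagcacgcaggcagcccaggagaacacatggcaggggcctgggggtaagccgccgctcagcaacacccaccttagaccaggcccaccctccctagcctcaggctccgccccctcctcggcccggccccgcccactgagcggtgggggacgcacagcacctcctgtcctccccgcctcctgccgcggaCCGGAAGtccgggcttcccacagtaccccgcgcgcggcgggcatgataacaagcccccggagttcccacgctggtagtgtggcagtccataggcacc
Tfb2m: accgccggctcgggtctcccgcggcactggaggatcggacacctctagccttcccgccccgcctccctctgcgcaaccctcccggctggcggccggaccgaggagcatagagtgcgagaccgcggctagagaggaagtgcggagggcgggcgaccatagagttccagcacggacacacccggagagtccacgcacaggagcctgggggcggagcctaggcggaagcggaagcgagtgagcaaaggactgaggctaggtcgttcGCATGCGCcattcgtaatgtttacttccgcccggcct
Polrmt: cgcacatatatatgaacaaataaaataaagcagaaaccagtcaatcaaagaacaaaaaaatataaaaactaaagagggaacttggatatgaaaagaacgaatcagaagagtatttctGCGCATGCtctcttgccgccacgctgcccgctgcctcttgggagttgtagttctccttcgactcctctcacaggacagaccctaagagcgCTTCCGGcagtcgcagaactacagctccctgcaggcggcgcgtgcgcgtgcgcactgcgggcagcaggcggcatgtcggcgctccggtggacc
Esrra: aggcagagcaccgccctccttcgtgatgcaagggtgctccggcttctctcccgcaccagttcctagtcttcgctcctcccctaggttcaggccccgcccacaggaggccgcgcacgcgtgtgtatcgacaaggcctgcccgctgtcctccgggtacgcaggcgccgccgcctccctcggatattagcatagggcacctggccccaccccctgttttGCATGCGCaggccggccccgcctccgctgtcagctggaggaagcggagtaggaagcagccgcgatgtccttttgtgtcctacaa
Counted from the start site, the ETS letters of Tfam began at base -47 and the NRF-1 letters of Tfb2m at base 14 of the transcript. Polrmt held both, the NRF-1 letters at base -133 and the ETS letters at base -43, and Esrra held the NRF-1 letters at base -34. Searched on both strands, the NRF-1 letters occurred in 2.71% of 32817 promoter windows of the same length and the ETS letters in 8.86%. AGGTCA, the half-site of thyroid hormone receptors and of Esrra, occurred in 16.3%, and of the 10 windows at hand for 9 of the genes it was in that of Pprc1 alone. The gene without a window was Ppargc1b, whose promoter was not searched. The Gabpa window also held the ETS letters, and those of Ppargc1a, Nrf1 and Tfb1m held none of the 3. A match is a description of letters and not of binding.

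Livers came from C57BL/6 pups of postnatal day 15, 1 pup to an array, in 4 treatments and both sexes. Control pups (4 males, 4 females) had untreated dams and a saline injection. In the hypo group (4 males, 5 females) the dam's water held 0.05% methimazole (MMI) and 1% sodium perchlorate, which block hormone synthesis and the uptake of iodide by the thyroid, over the last 3 days, and the pups received saline. The hypo+ group (4 males, 3 females) had the same water and an intraperitoneal injection of 20 µg T4 and 2 µg T3 per 100 g body weight. The hyper group (5 males, 5 females) had water without goitrogen and 50 µg T4 and 5 µg T3 per 100 g, so the injected doses differed. Drinking water in the study held 1% sucrose, by the paper's methods. Injections were given 4 hours before collection. Pups were exposed through the dam and her milk, and the methods state that hypo+ pups were limited to those with suitable serum T4. Each array held liver RNA in Cy5 against a universal mouse reference in Cy3 with no dye swap, and a value below is the log2 ratio of Cy5 to Cy3, a level relative to that reference.

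Across the 34 arrays the median Cy5 signal per spot was 146 to 199, and 60.8 to 79.4% of spots were well above background. All 15 member probes were well above background on every array. Dio1, the thyroid-hormone-induced deiodinase, was lower in hypo than in control pups by 1.46 (SE 0.20, limma adjusted p = 0.0124) in males and by 1.77 (SE 0.27, adjusted p = 0.00923) in females on the log2 scale. Thrsp, the other thyroid-responsive gene checked, differed by -1.55 (SE 0.41, adjusted p = 0.358) in males and -1.48 (SE 0.31, adjusted p = 0.0768) in females. It was not called here, though the paper's own test found it lower in both sexes. In hyper pups neither gene was called, with Dio1 at 0.37 in males and 0.29 in females. The hepatocyte markers Alb, Apoa1, Ttr, Tat and Serpina1c were bright on every array. Male control pups 832 and 522 stood apart with a summed Cy5 signal of 95029 and 103234 over 9 pancreatic acinar markers, against 3022 to 18442 on the other arrays. Summed signals over 5 skeletal muscle and brown fat markers were above 1000 in 5 pups (male hypo 311, male hyper 498, female hypo+ 763, female hypo 721 and female hyper 499). With either set of arrays left out, no member was called other than Ppargc1b in hypo females, and values without them are given for Ppargc1b and for hypo differences of Ppargc1a and Esrra.

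Ppargc1b was the only member called in any comparison with controls, and it was called in females alone: it was lower in hypo than in control livers by both of its probes. In the female controls the brighter probe (A_51_P294891) read 0.67, 0.73, 0.86 and 0.94, and in the female hypo pups it read -0.02, 0.04, 0.10, 0.14 and 0.28. Every hypo pup lay below every control. The share of all probes whose groups separate in this way was not counted, here or in the comparisons below. The difference was -0.69 (SE 0.10), a 1.61-fold lower level, with an adjusted p of 0.00676 over all probes by limma. The dimmer probe (A_52_P526724) differed by -0.76 (SE 0.12, adjusted p = 0.0154), with controls at 0.67, 0.71, 0.89 and 1.11 and hypo pups at -0.08, 0.02, 0.05, 0.20 and 0.23, and its groups did not overlap either. These were 2 of 15 member probes, against 0.155% of all 41174 probes called in that comparison. With median centring of the arrays instead of loess, neither probe was called and the difference of the brighter probe was -0.53, and none was called on the Cy5 channel alone, where it was -0.73. The hypo arrays are also part of the contrast on which the set was selected, so this test shares 1 of its groups with that choice.

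Male pups had Ppargc1b differences of nearly the same size that did not pass the adjustment. This comparison, too, shares its hypo arrays with the contrast on which the set was selected. Male controls read 0.61, 0.87, 0.99 and 1.16 by the brighter probe, and male hypo pups -0.02, 0.26, 0.39 and 0.45, again with no overlap. The difference was -0.64 (SE 0.17, adjusted p = 0.358), and -0.67 (SE 0.18, adjusted p = 0.381) by the dimmer probe, where controls ran from 0.51 to 1.32 and hypo pups from 0.10 to 0.25. No member probe was called in males, where 0.0971% of all probes were, and 2 member probes, both of Ppargc1b, had an unadjusted p under 0.05, as did 5.20% of all probes. Without the 2 male controls that were high in acinar markers the difference of the brighter probe was -0.66, and without the 2 male arrays high in muscle or brown fat markers it was -0.54. The response did not differ detectably between the sexes: the female minus male difference was -0.05 (SE 0.20, 95% interval -0.47 to 0.36) by the brighter and -0.10 (SE 0.23) by the dimmer probe.

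**Figure D1:**
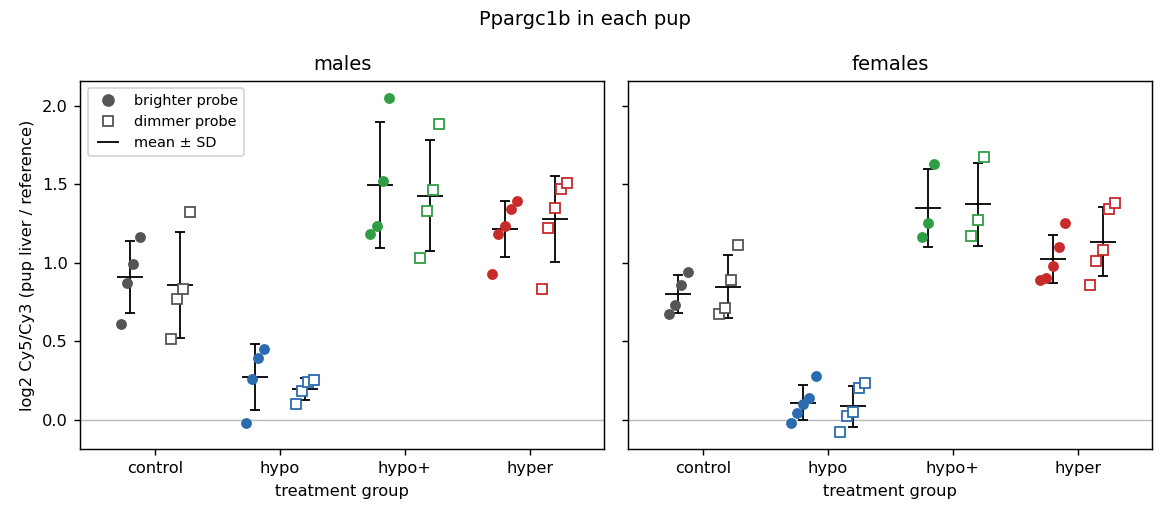
Log2 Cy5/Cy3 of Ppargc1b (y axis) in each pup by treatment group (x axis), males left and females right; filled circles are the brighter and open squares the dimmer probe, and bars are the group mean and SD. In both sexes the hypo pups lie lowest, from -0.08 to 0.45 over both probes, and by the brighter probe the hypo+ pups lie above the controls, from 1.16 to 2.05.

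Hormone given to pups on water without goitrogen, the hyper group, gave Ppargc1b differences from controls that were small and not called. Hyper and control arrays are not part of the contrast on which the set was selected. The comparison is still not fully independent of that choice. Its limma fit shared the estimate of the spread with the hypo and hypo+ arrays. The members and tests were also chosen with earlier results of these data known. By the brighter probe male hyper pups read 0.93, 1.18, 1.23, 1.34 and 1.39 and female hyper pups 0.89, 0.90, 0.98, 1.10 and 1.25, overlapping their controls in both sexes. The difference from controls was 0.31 (SE 0.16, 95% interval -0.04 to 0.65, adjusted p = 1) in males and 0.22 (SE 0.10, interval 0.02 to 0.43, adjusted p = 0.753) in females. The dimmer probe gave 0.42 (SE 0.17, adjusted p = 1) and 0.29 (SE 0.12, adjusted p = 0.741). No member probe was called by limma in either sex, where 0.0753% of all probes in males and 0.158% in females were called, and 1 member probe in males and 3 in females had an unadjusted p under 0.05, as did 2.97 and 6.16% of all probes. Without the arrays high in acinar markers the male difference of the brighter probe was 0.28, and without those high in muscle or brown fat markers it was 0.27 in males and 0.23 in females. The sexes differed by -0.08 (SE 0.20, interval -0.48 to 0.32).

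With goitrogen and hormone together, in the hypo+ pups, Ppargc1b values lay above those of controls by the brighter probe, with no difference called. Male hypo+ pups read 1.18, 1.23, 1.52 and 2.05 and female hypo+ pups 1.16, 1.25 and 1.63 by that probe, all above every control of their sex. Hypo+ arrays are part of the contrast on which the set was selected, so this comparison shares a group with that choice. The difference from controls was 0.59 (SE 0.17, adjusted p = 0.403) in males and 0.55 (SE 0.11, adjusted p = 0.234) in females, and 0.57 (SE 0.18, adjusted p = 0.434) and 0.52 (SE 0.14, adjusted p = 0.416) by the dimmer probe, whose male groups overlapped. No member probe was called in either sex, where 0.0267% of all probes in males and 0.0219% in females were called, and 2 and 4 member probes had an unadjusted p under 0.05, as did 7.56 and 4.79% of all probes. Without the arrays high in acinar markers the male difference of the brighter probe was 0.56, and without those high in muscle or brown fat markers it was 0.59 in males and 0.64 in females. The sexes differed by -0.04 (SE 0.22, interval -0.48 to 0.40).

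The contrast that chose the set was the widest for Ppargc1b. From hypo to hypo+ the brighter probe was higher by 1.22 (SE 0.17), a 2.33-fold level, in males and by 1.24 (SE 0.11), a 2.36-fold level, in females. The dimmer probe differed by 1.23 (SE 0.18) and 1.29 (SE 0.13). In both sexes every hypo+ pup lay above every hypo pup by both probes. Over all probes 0.369% in males and 0.556% in females passed the threshold in this contrast, and no count of members is read against those shares. The ordering of the 4 treatments by their mean was the same in both sexes, hypo lowest (0.27 in males, 0.11 in females by the brighter probe), then control (0.91 and 0.80), hyper (1.21 and 1.02) and hypo+ (1.49 and 1.35). Hyper overlapped control in both sexes and hypo+ in both, so neighbours in the upper part of that order were not separated beyond their spread.

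Both Ppargc1b probes followed each other closely from pup to pup. The SD of their difference over the 34 arrays was 0.14, against a range of 2.07 for the brighter probe. A further probe (A_52_P293222), which the study's own table names Ppargc1b through a transcript outside RefSeq and which is not a member, ran the same way. It differed between hypo and control by -0.77 (SE 0.24, adjusted p = 0.534) in males and by -0.97 (SE 0.15, adjusted p = 0.00923) in females, and between hypo+ and hypo by 1.46 (SE 0.24) and 1.48 (SE 0.16). Its SD of difference from the brighter probe was 0.25.

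Pups of several treatments shared glass slides, which allowed comparison within a slide. Between hypo and control the brighter Ppargc1b probe was lower in 3 of 3 slides in males, by -0.73, -0.15 and -1.18, and lower in 4 of 4 in females, from -0.89 to -0.58. From hypo to hypo+ it was higher in 2 of 2 slides in males, by 0.77 and 1.20, and in 2 of 2 in females, by 0.88 and 1.10. That contrast chose the set, so its sign within slides is a description and no separate check. The hyper minus control difference was not of 1 sign: it was positive in 3 of 4 male slides (-0.07 to 0.78) and in 3 of 4 female slides (-0.05 to 0.51). Male hypo+ minus control was 0.62, 0.01 and 1.18, and female 0.30 and 0.51, so on 1 male slide the pair was level.

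**Figure D2:**
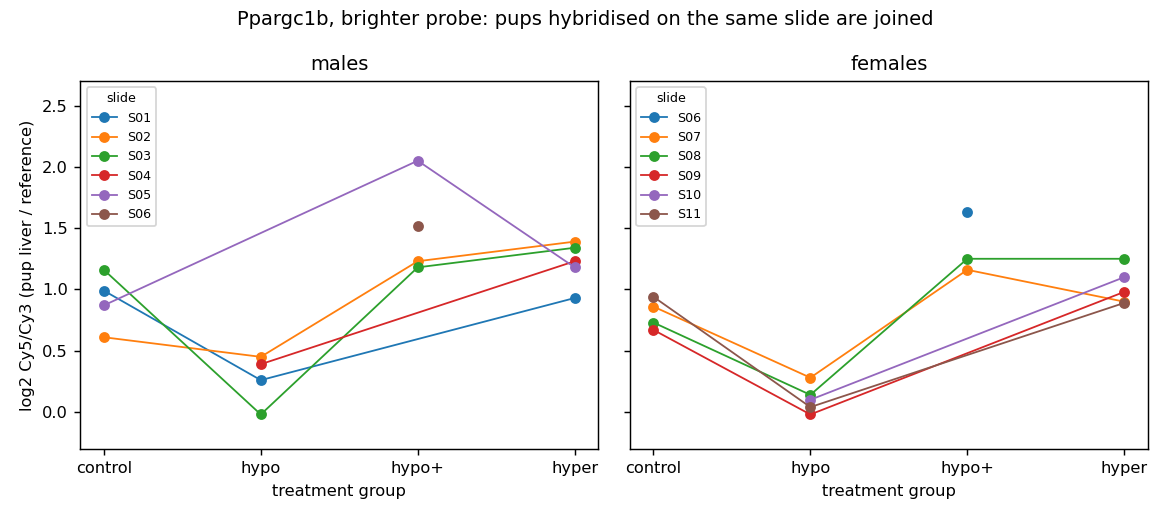
Log2 Cy5/Cy3 of the brighter Ppargc1b probe (y axis) by treatment (x axis), males left and females right; each point is a pup and lines join pups hybridised on the same slide, each slide in its own colour (S06 held 1 hypo+ pup of each sex). Where a slide held both, the hypo pup lies below the control, by 0.15 to 1.18 in males and by 0.58 to 0.89 in females.

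Ppargc1a, the paralog that liver induces in fasting, showed wide spread among pups of the same treatment and no called difference. Its within-group SD was 0.41, higher than that of 98.5% of all probes, whose median was 0.119. Male controls read 1.98, 2.40, 2.53 and 2.90 and male hypo pups 1.95, 2.31, 3.05 and 3.18. Hypo males thus held the lowest value of their sex beside some of the highest. Male hypo+ pups read 2.31, 2.87, 3.18 and 3.33 and male hyper pups 2.06, 2.23, 2.69, 2.74 and 2.76. In females the values were 2.17, 2.37, 2.39 and 2.60 in controls, 2.37, 2.49, 2.53, 3.04 and 3.30 in hypo, 1.96, 2.41 and 3.31 in hypo+ and 1.97, 2.34, 2.36, 2.38 and 2.50 in hyper pups. All of these groups overlapped.

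Against controls the Ppargc1a differences lay between -0.07 and 0.47, with SEs of 0.23 to 0.28. The widest was hypo+ in males at 0.47 (95% interval -0.12 to 1.06, adjusted p = 0.775), followed by hypo in females at 0.36 (interval -0.12 to 0.84, adjusted p = 1). From hypo to hypo+ it was 0.30 in males and -0.19 in females, where Ppargc1b was 1.22 and 1.24. The female hypo pup with the highest Ppargc1a value, 3.30, was pup 721, which also had the highest sum of muscle and brown fat markers, 7960, with the muscle actin Acta1 as its brightest. Without the 5 arrays high in those markers the female hypo difference was 0.22, against 0.36 with all arrays. The male one was 0.27, against 0.17 with all arrays. Any part of those markers in the Ppargc1a values was not tested.

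Esrra, a nuclear receptor that both coactivators bind and that is itself a PGC-1 target, read slightly above controls in all 6 comparisons, and none was called. With arrays centred on their median the sign turned in males, at -0.07 for hypo and -0.07 for hypo+, and without the 2 male controls high in acinar markers the hypo difference was -0.02. Male values were 0.35, 0.62, 0.66 and 0.66 in controls, 0.41, 0.56, 0.73 and 0.78 in hypo, 0.59, 0.70, 0.82 and 0.86 in hypo+ and 0.58, 0.69, 0.76, 0.79 and 0.83 in hyper pups. Female values were 0.29, 0.40, 0.49 and 0.64 in controls, 0.33, 0.50, 0.52, 0.57 and 0.69 in hypo, 0.64, 0.76 and 0.79 in hypo+ and 0.53, 0.59, 0.59, 0.65 and 0.66 in hyper pups. The injected groups lay toward the upper end in both sexes, and every group overlapped or met its controls. Within slides the hyper pup read above the control on 4 of 4 slides in males, by 0.13 to 0.23, and on 4 of 4 in females, by 0.01 to 0.29, while hypo minus control was positive on 2 of 3 male and 2 of 4 female slides. On the slides that held both injected and uninjected goitrogen-treated pups, hypo+ read above hypo on 2 of 2 in males (0.26 and 0.29) and 2 of 2 in females (0.24 and 0.29). Over all pups this difference was 0.12 in males and 0.21 in females. The set was selected on hypo+ against hypo, so these signs are a description and no separate check. The share of all probes with such signs within slides was not counted. The hyper minus control difference was 0.16 (SE 0.09, adjusted p = 1) in males and 0.15 (SE 0.07, adjusted p = 0.842) in females. The hypo+ difference was 0.17 (SE 0.09, adjusted p = 0.721) and 0.28 (SE 0.08, interval 0.10 to 0.45, adjusted p = 0.54), and the hypo difference 0.05 and 0.07.

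Nrf1 and Gabpa, the transcription factors through which the coactivators reach the machinery of the mitochondrion, were called in no comparison. Over both Nrf1 probes the 12 differences from controls lay between -0.12 and 0.10. By the brighter one male controls read -0.59, -0.46, -0.37 and -0.27 and male hypo pups -0.57, -0.37, -0.26 and -0.24, and female controls -0.50, -0.38, -0.28 and -0.24 and female hypo pups -0.50, -0.38, -0.34, -0.28 and -0.19. Controls and hypo pups covered the same span. The 3 probes of Gabpa, the DNA-binding subunit of GABP, gave 18 differences between -0.31 and 0.06. The dimmest of them was the lowest of the members other than Ppargc1b in males, at -0.28, -0.21 and -0.31 for hypo, hyper and hypo+, while the brightest gave -0.15, 0.03 and -0.13, so the probes of that gene differed in size. None was called.

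Tfam, Tfb2m and Polrmt, the factors of mitochondrial transcription whose promoters are shown above, and Tfb1m stayed within 1.19-fold of controls. Their 6 probes gave 36 differences between -0.25 and 0.19, none called. Tfam, which packages mitochondrial DNA and opens its promoters, read 0.44, 0.54, 0.57 and 0.67 in male controls, 0.56, 0.59, 0.66 and 0.74 in male hypo, 0.44, 0.50, 0.56 and 0.72 in male hypo+ and 0.59, 0.60, 0.61, 0.63 and 0.78 in male hyper pups by its brighter probe. In females it read 0.48, 0.50, 0.60 and 0.62 in controls, 0.36, 0.57, 0.60, 0.70 and 0.82 in hypo, 0.46, 0.56 and 0.62 in hypo+ and 0.48, 0.59, 0.65, 0.71 and 0.75 in hyper pups. These Tfam groups overlapped their controls, and its differences from controls were between -0.07 and 0.19 over both probes.

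Tfb2m, the initiation factor of the mitochondrial polymerase, had the lowest values of that group by its brighter probe. They were -0.25 (SE 0.14) for hypo males, -0.25 (SE 0.14) for hypo+ males and -0.25 (SE 0.13) for hypo females. Male controls read 0.83, 0.96, 1.02 and 1.27 and male hypo pups 0.66, 0.72, 0.76 and 0.95, and female controls 0.83, 0.86, 1.00 and 1.27 and female hypo pups 0.41, 0.62, 0.66, 0.94 and 1.05. The groups overlapped. Male hypo+ pups ran from 0.56 to 0.96 by that probe, and female hypo+ pups had a mean of 0.98 against 0.99 in controls. The dimmer Tfb2m probe gave -0.13 in hypo males, 0.01 in hypo+ males and -0.03 in hypo females. Tfb1m, a methyltransferase of the mitochondrial small ribosomal RNA, was between -0.16 and 0.05 of controls, and in females the 3 hypo+ pups at 0.81, 0.90 and 0.93 lay below the controls at 0.97, 1.04, 1.05 and 1.08 (difference -0.16, SE 0.06, adjusted p = 0.96). Polrmt, the mitochondrial RNA polymerase itself, was between -0.15 and 0.03.

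**Figure D3:**
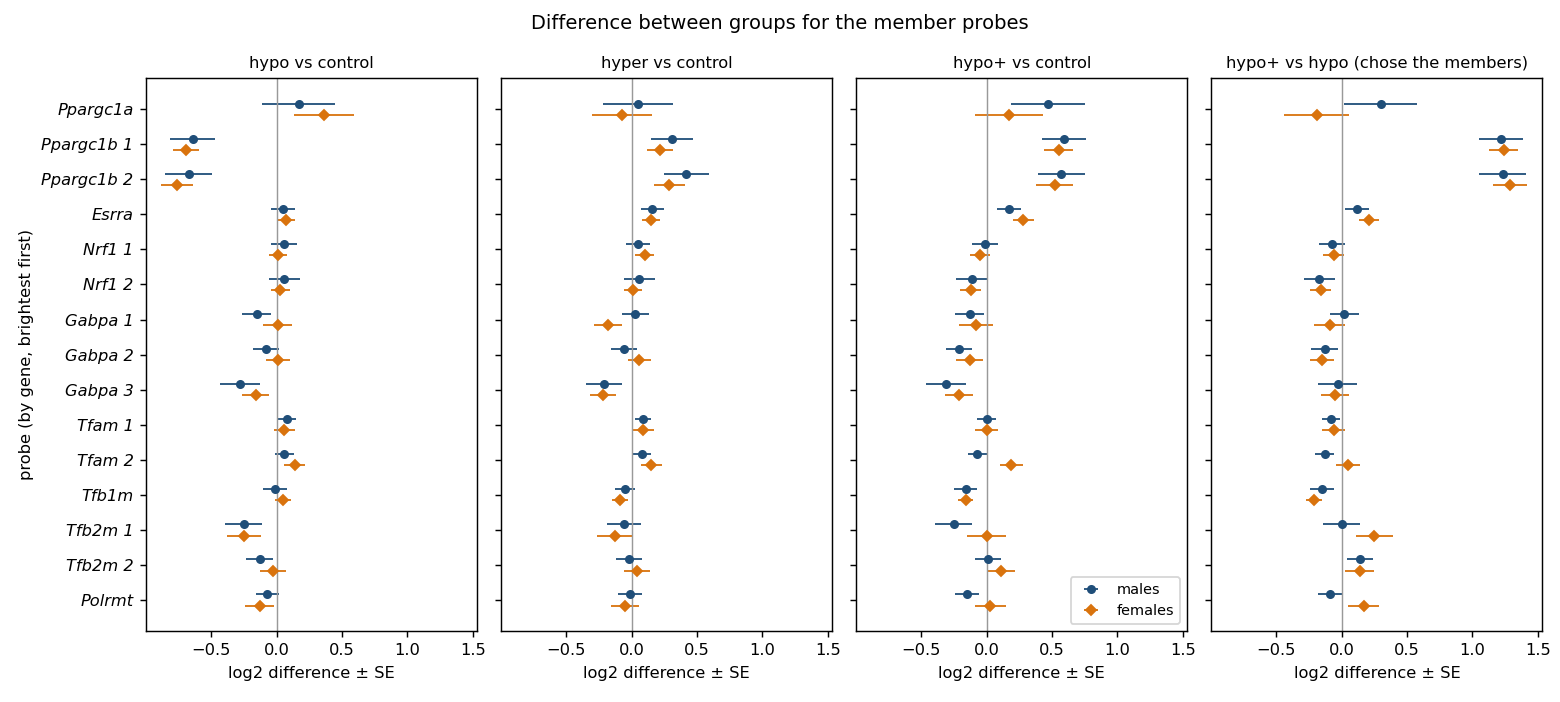
Log2 difference with its SE (x axis) for each member probe (y axis, by gene, brightest probe first) in the 3 comparisons with controls and in hypo+ vs hypo, the contrast that chose the set; circles are males and diamonds females. Outside the Ppargc1b rows the differences from controls lie between -0.31 and 0.47, and the Ppargc1b rows run from -0.76 in hypo to 0.59 in hypo+.

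**Figure D4:**
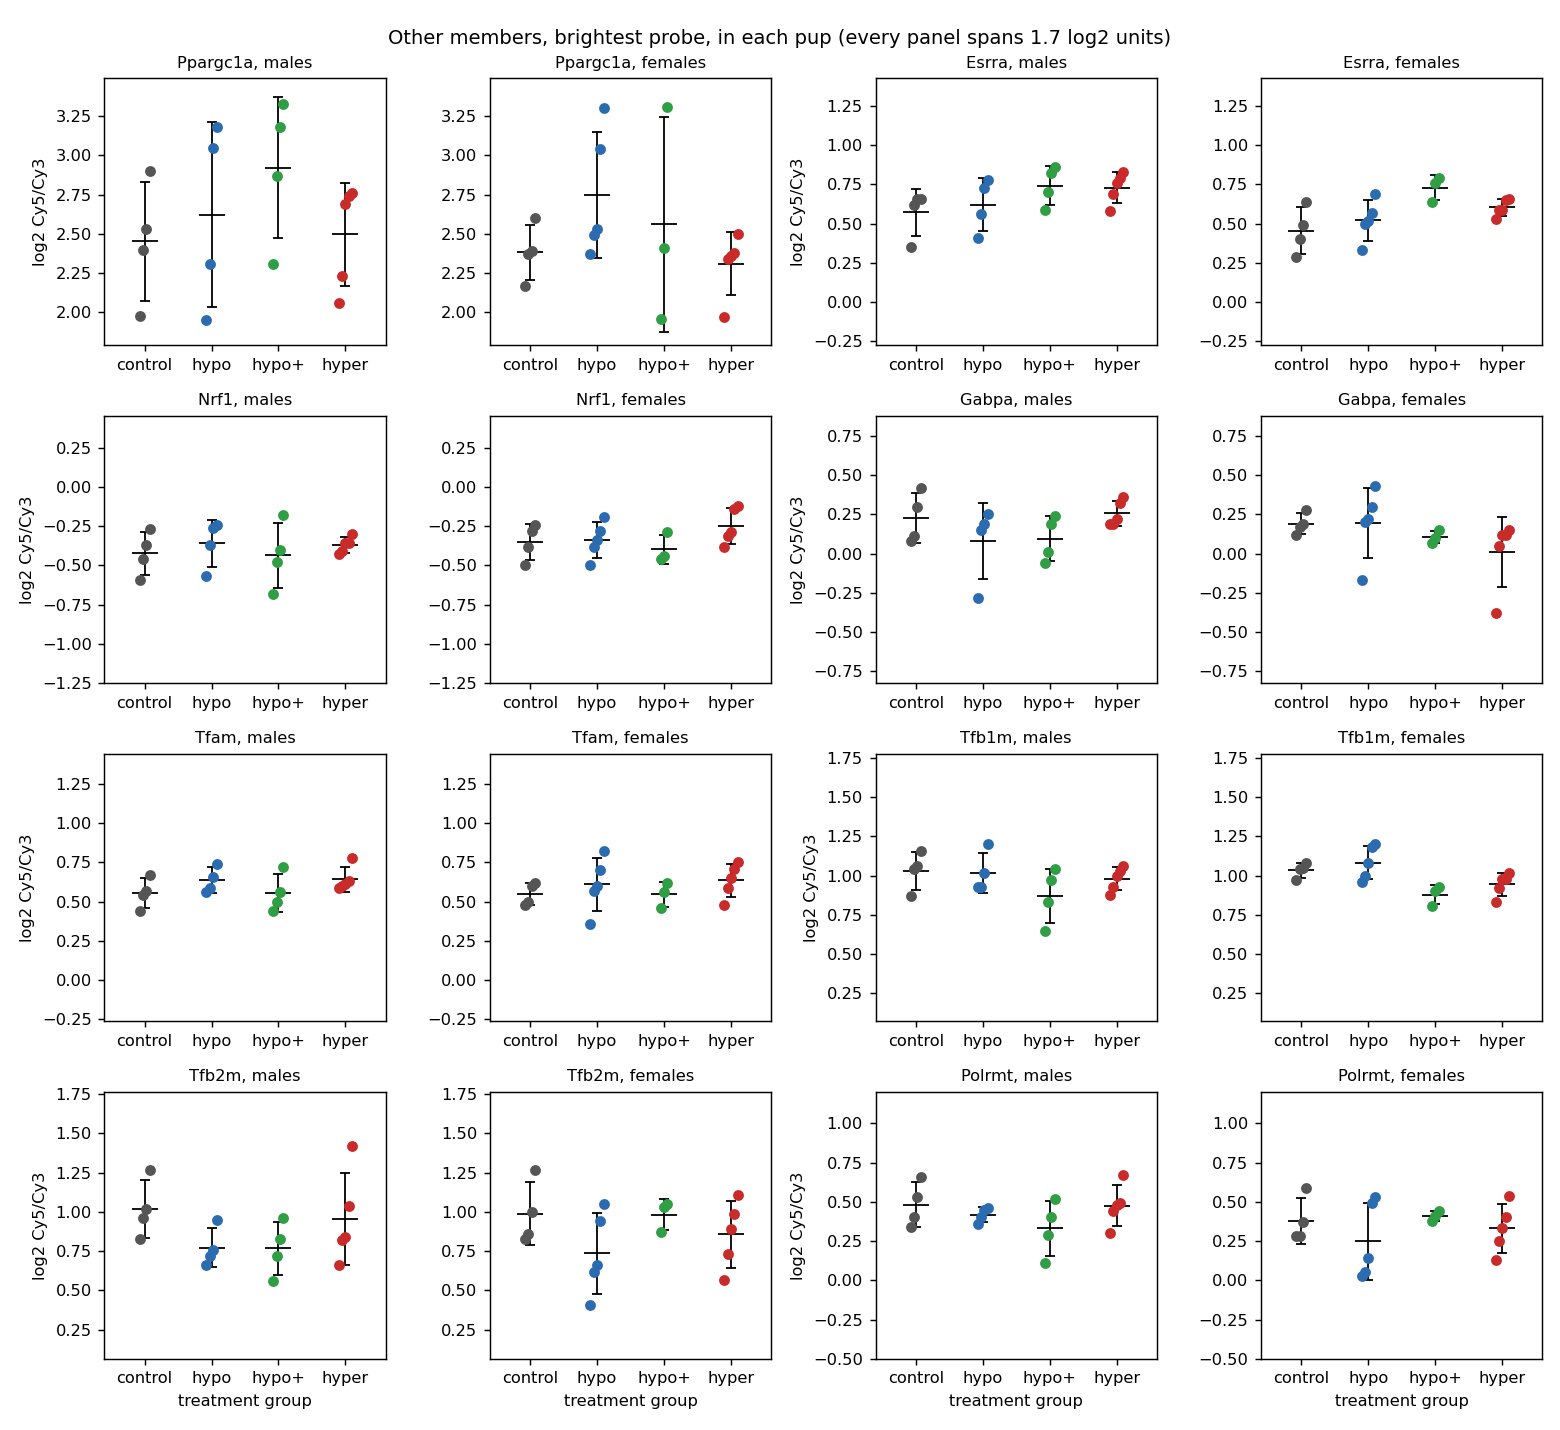
Log2 Cy5/Cy3 (y axis, each panel spanning 1.7 log2 units) of the brightest probe of 8 members by treatment group (x axis), a panel per gene and sex; points are pups and bars the group mean and SD. Ppargc1a spreads from 1.95 to 3.33, while the groups of Nrf1, Tfam and Polrmt overlap in both sexes.

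The difference between the sexes in these responses was called for no member probe by limma, where 0% of all probes were called in each of the 3 interactions. At an unadjusted p under 0.05 there were 0, 0 and 1 member probes for hypo, hyper and hypo+, the last being the dimmer Tfam probe (0.26, SE 0.12, adjusted p = 1), where all probes gave 1.04, 1.26 and 1.33%. Over all 15 member probes the median difference from controls was -0.07, 0.05 and -0.07 in males and 0.01, 0.04 and 0.00 in females for hypo, hyper and hypo+, against 0.00, 0.00 and -0.01, and 0.00, -0.01 and 0.00, over all probes.

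Genes around the coactivators were read from 4 lists with the brightest probe of each gene, 74 genes in all. Of these, 24 of 24 listed partners and modifiers of PGC-1 were on the array, 22 of 23 genes of mitochondrial DNA maintenance and expression, 17 of 17 nuclear-encoded respiratory targets of NRF-1 and GABP and 11 of 12 hepatic PGC-1 targets. None was called higher or lower in any of the 6 comparisons with controls. At an unadjusted p under 0.05 there were 8, 1 and 9 of the 74 in males and 9, 8 and 3 in females for hypo, hyper and hypo+, that is 10.8, 1.35 and 12.2% and 12.2, 10.8 and 4.05%, where all probes gave 5.20, 2.97 and 7.56% and 4.72, 6.16 and 4.79%. These counts were uneven over the lists. The highest shares were 7 of 22 genes of mitochondrial DNA maintenance and expression in hypo+ males (31.8%) and 3 of 11 hepatic PGC-1 targets in hypo females (27.3%). Other lists had 0 in some comparisons, and no list was tested as a set. List medians against controls lay within 0.19 of 0 on the log2 scale.

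Among the partners, Foxa2, a liver transcription factor, differed most on average, from -0.41 (hyper females, adjusted p = 0.359) to -0.08, and Pparg, a lipid-sensing nuclear receptor that PGC-1 binds, read 0.36 in hypo males (SE 0.11, adjusted p = 0.556) and 0.37 in hypo females (SE 0.13, adjusted p = 0.602). Top1mt, the mitochondrial topoisomerase, read 0.36 in male hypo pups (SE 0.07, adjusted p = 0.0926) and 0.32 in female hypo pups (SE 0.10, adjusted p = 0.493). Polg2, the accessory subunit of the mitochondrial DNA polymerase, read 0.27 and 0.30 in hypo+ males and females (adjusted p = 0.463 and 0.459). Of the respiratory targets, Cox7c, a subunit of cytochrome oxidase, read -0.48 (SE 0.27) in male and -0.30 (SE 0.19) in female hypo pups, and Alas1, the first enzyme of heme synthesis, 0.24 and 0.25.

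The widest differences in the 4 lists were among the hepatic PGC-1 targets. Lpin1, a phosphatidate phosphatase that partners with PGC-1 in fatty acid oxidation, read -1.03 (SE 0.65, adjusted p = 1) in hypo males and -1.0 (SE 0.37, adjusted p = 0.75) in hypo females. In hyper pups it read -0.90 (SE 0.62) and -1.09 (SE 0.37, adjusted p = 0.535). Angptl4, a fasting-induced inhibitor of lipoprotein lipase, read -0.71 and -0.62 in hypo and -0.71 and -0.97 in hyper males and females, the last with an adjusted p of 0.363. Both genes lay on the same side of controls in hypo and in hyper pups, which share those controls. Beside the called Ppargc1b difference in hypo females, no listed target was called.

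The genes whose pattern was most like that of Ppargc1b were picked by the root mean square difference of their 8 group means, each sex centred on its own mean, and are given as a description because the arrays and the choice are shared. Only RefSeq-named genes outside the set were ranked, so probes without such a name were passed over. The closest of the ranked genes were Osgin1, a stress-induced growth inhibitor (0.104 log2 units), N4bp2l1 (0.122), Trim24, a nuclear receptor cofactor (0.137), Sned1 (0.148) and D230025D16Rik (0.159). The non-RefSeq Ppargc1b probe lay at 0.123, with 8 of all probes closer. By that measure no probe was closer than the other RefSeq probe of Ppargc1b itself, at 0.053. Centred means of Sned1, for example, were -0.80 in hypo and 0.48 in hypo+ males and -0.81 and 0.38 in females, where Ppargc1b had -0.70, 0.52, -0.71 and 0.53. Its hypo+ minus hypo difference was 1.28 (SE 0.09) in males and 1.19 (SE 0.08) in females.

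In whole liver, a lower share of a cell type and less RNA per cell cannot be told apart. Summed over 5 hepatocyte markers the Cy5 signal was 701040 to 851659 in female controls and 696050 to 822823 in female hypo pups, and over 3 stellate markers 5839 to 12157 and 6513 to 10236. Of 5 leukocyte markers on the array the sums were 8173 to 13076 and 9160 to 14096, of 5 erythroid markers 16914 to 53390 and 17310 to 31850, and of 3 cholangiocyte markers 710 to 1118 and 634 to 1096. These ranges overlapped between the groups in which Ppargc1b was called, but a sum is carried by its brightest genes. On the log2 scale hypo minus control in females was -0.1 to -0.01 over the hepatocyte and -0.62 to -0.12 over the erythroid markers. It was -0.17 to 0.06 over the leukocyte, -0.1 to 0.1 over the cholangiocyte and -0.34 to 0.12 over the stellate markers. None of these markers was called. The acinar sums were 4931 to 18442 in female controls and 3022 to 5386 in female hypo pups, and their part in the result was not tested. Without the 3 female arrays high in muscle or brown fat markers both Ppargc1b probes were still called lower in hypo females, at -0.70 and -0.72.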

How the data were processed

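Total RNA from single pup livers was labelled with Cy5, the reference with Cy3, and both were hybridised to Agilent whole genome arrays. The deposited values were scanner intensity values from Feature Extraction 10.1.1.1, per the file headers, with that software's background-subtracted, dye-normalized log10 ratio as deposited, and the authors' table of normalized log2 ratios, which tracked the values used here with a slope near 1 and served, like the log10 ratio, as an alternative. The submitters' outlier arrays were not analysed here.

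Median Cy5 and Cy3 intensities without background subtraction were loess-normalized within each array (limma 3.58.1, R 4.3.3). Control spots had weight 0, outlier-marked spots were left out, and spots of 1 probe were averaged. Groups were compared per sex in a 4-group limma fit with Benjamini-Hochberg adjustment over 41174 probes at 0.05, and the sexes in an 8-group fit. In simulated data the fit called 89.4% of planted hypo changes of 0.7 log2 units in males and 87.9% in females. Those changes were in randomly chosen probes with independent noise and no slide or litter correlation. They therefore give no power for the member probes. RefSeq names (GRCm38.p6) matched 16806 of 33541 transcript accessions of the array. The members, lists and tests were chosen with earlier results of these data known. Named genes were all members, a non-RefSeq Ppargc1b probe, and, per list, called genes or else the 2 with the widest mean absolute change. Pups are separate animals, and litters are not given in the labels. The paper analysed the sexes apart because of correlation through the dam and took pups within a sex as independent. A male and a female pup may thus share a dam, while the main 8-group fit treats them as independent. Longer motif spellings were also searched while choosing. Alternatives changed normalization, background, filter, outlier spots, blocks, samples and probe averaging. The number of arrays limits the precision.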

Additional observations from a re-analysis of the deposited data

Results flagged for a closer look

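In 5 of 112 groups of 4 or 5 pups, 1 pup lay apart from the others by Dixon's criterion, and chance gives about 1 in 20. The male control pup 522 had an Esrra value of 0.35 against 0.62 to 0.66 in the other controls. The female hyper pup 585 had a Gabpa value of -0.38 by the brightest probe, against 0.05 to 0.15. For Tfam, the male hyper pup 583 read 0.78 against 0.59 to 0.63 by the brighter probe. By the dimmer Tfam probe the female control pup 831 read 0.66 against 0.45 to 0.48 and the male hypo pup 723 read 0.77 against 0.65 to 0.66. No Ppargc1b value stood apart in this way.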

How the results depend on the processing

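The counts of called member probes were recomputed under 15 alternatives in males, 14 in females and 14 for the interactions (2 of them in males and for the interactions, and 1 in females, leaving out arrays high in markers of other tissues, chosen after seeing the data), and with each array left out. Only the count for hypo against control in females changed, from 2: it was 0 with arrays centred on their median and on Cy5 alone, 1 with the scanner software's own log ratio, and 1 of 9 genes when the probes of a gene were averaged, by construction. With 1 array left out it ran from 1 to 2. The brighter probe was called in 17 of 17 such fits, and the dimmer in 14 of 17, missing without female controls 523 (adjusted p = 0.0782) or 882 (0.0603) and without female hypo pup 316 (0.0549). Over all its alternatives the brighter probe ran from -0.77 to -0.53 there, with adjusted p from 0.00136 to 1, while in males it spanned -0.74 to -0.54, with adjusted p from 0.0811 to 1. Its hypo+ minus hypo difference spanned 1.04 to 1.33 for males, 1.03 to 1.34 for females, and its hyper minus control difference 0.21 to 0.39 and 0.17 to 0.39, never called. The non-RefSeq probe missed the threshold in hypo females with arrays centred (adjusted p = 0.515), normexp background (0.0538) and Cy5 alone (0.0837). The cause of these changes was not tested. No Ppargc1b difference changed sign under any alternative or with any array left out, while 36 of the 90 differences of member probes from controls did under at least 1, none of them called and each within 0.17 of 0. Pup numbers are not shared between groups, so no pairing by animal was possible. Pups of several groups shared slides, and with slide as a fixed or a random block both Ppargc1b probes were called in hypo females (brighter probe, adjusted p = 0.00386 and 0.00217). All member probes were well above background on all 34 arrays. The dimmest, an Nrf1 probe, read 134 to 209 in Cy5 without background subtraction, against negative-control limits of 85 to 105.5.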
